A study of Xenopus laevis with 4 samples.

Results

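The homeobox genes of the Msx and Dlx families were examined in ventral explants of gastrulating Xenopus laevis embryos. They were taken as every row of the expression table with the base symbol msx1, msx2, dlx3, dlx5 or dlx6 and the suffix .L or .S, which name the long and the short subgenome of this allotetraploid frog. This gave 9 of the 21531 genes in the table, of which 4 were msx genes and 5 were dlx genes: msx1.L, msx1.S, msx2.L, msx2.S, dlx3.L, dlx3.S, dlx5.L, dlx5.S and dlx6.S. The choice used symbols and not expression values, but it was made with earlier results of these data known.

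BMP ligands bind receptor kinases that phosphorylate Smad proteins, which enter the nucleus and bind the control regions of BMP-responsive genes. In the gastrula, BMP signalling is strongest on the ventral side and is held down dorsally by antagonists that the Spemann organizer secretes. The Msx and Dlx homeodomain proteins are among the transcription factors that respond to BMP: Msx proteins act mainly as repressors and are known from ventral mesoderm, epidermis and the neural plate border, while Dlx3 and Dlx5 are known mainly from the non-neural ectoderm and the border around the neural plate. Vertebrate Dlx genes lie in linked pairs, such as dlx5 with dlx6 and dlx3 with dlx4.

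The explants came from 2 groups of embryos, named after the RNA they received in ventral blastomeres. Control embryos received mRNA for Cas7-11, an RNA-guided nuclease that cuts RNA, without guides, and sox8 CRISPR embryos received the same mRNA together with guides against the transcripts of sox8, which encodes a SoxE transcription factor. Both groups thus carried the nuclease. The groups held 2 libraries each, made with Smart-seq2, which amplifies full-length cDNA of polyadenylated RNA, and the sample titles number them as embryos (1 and 2 in each group). Whether a library was made from 1 embryo or from pooled explants, and from which clutch, is not stated further, so the p-values measure the spread between these libraries only. All values are normalized counts, that is, reads per gene divided by the size factor of the library.

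The 4 libraries held 18189895 to 24108577 reads on genes, and 1 read was worth 0.625 to 1.56 normalized counts. They differed in how many genes were listed at 0, from 667 in sox8 CRISPR replicate 1 to 3862 in sox8 CRISPR replicate 2, the largest number of the 4. The targeted sox8.L was at 508 and 927 normalized counts in the controls against 26.9 and 25.4 in the sox8 CRISPR libraries, and was called lower by limma (log2 fold change -4.66, adjusted p = 0.0436). It was also called lower by edgeR (adjusted p = 0.0238) and DESeq2 (3.26e-06). Limma kept the call with quantile normalization (adjusted p = 7.87e-03), a pseudocount of 5 (0.0151) and a filter on means under 20 (0.0262). The limma call was lost with TMM scaling (adjusted p = 0.0619), a pseudocount of 0.5 (0.0684), the replicate block (0.0591) and no intensity trend (0.425). It was also lost with any library left out, where the log2 fold change of sox8.L stayed between -5.10 and -4.23. The homeolog sox8.S had 14.1 and 43.7 in the controls but 134 in sox8 CRISPR replicate 1 and 0 in replicate 2. The sign of its fold change depended on the test and the libraries used. As a check of the tissue, the 22 marker genes of ventral mesoderm summed to 87327 and 94127 in the controls and to 41143 and 49118 in the sox8 CRISPR libraries, with tbxt.L, a mesodermal T-box gene, at 5489 and 10121 against 5653 and 10617 and its homeolog tbxt.S at 7919 and 13989 against 17460 and 18549. The 19 organizer markers summed to 1226 and 1534 in the controls, with 6 and 7 of them at 0, and to 82059 and 11692 in the sox8 CRISPR libraries.

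Of the 9 msx and dlx genes, 8 lay below both controls in both sox8 CRISPR libraries, where 19.1% of all genes were. The main test, limma on log2(normalized count + 1), called 1 of them lower at an adjusted p under 0.05 and a log2 fold change over 0.58 in size, against 0.19% of all genes called lower. The same 9 genes held 2 lower calls by edgeR, against 0.237% of all genes, and 5 by DESeq2, against 0.859%, both on the recovered whole reads. Their median log2 fold change was -4.56, beside -0.16 for all genes. Without adjustment 7 of the 9 had a p under 0.05 in limma, as had 1463 of the 21531 genes. The gene apart from the other 8 was dlx3.L, which had between 0 and 21 reads in every library.

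**Figure D1:**
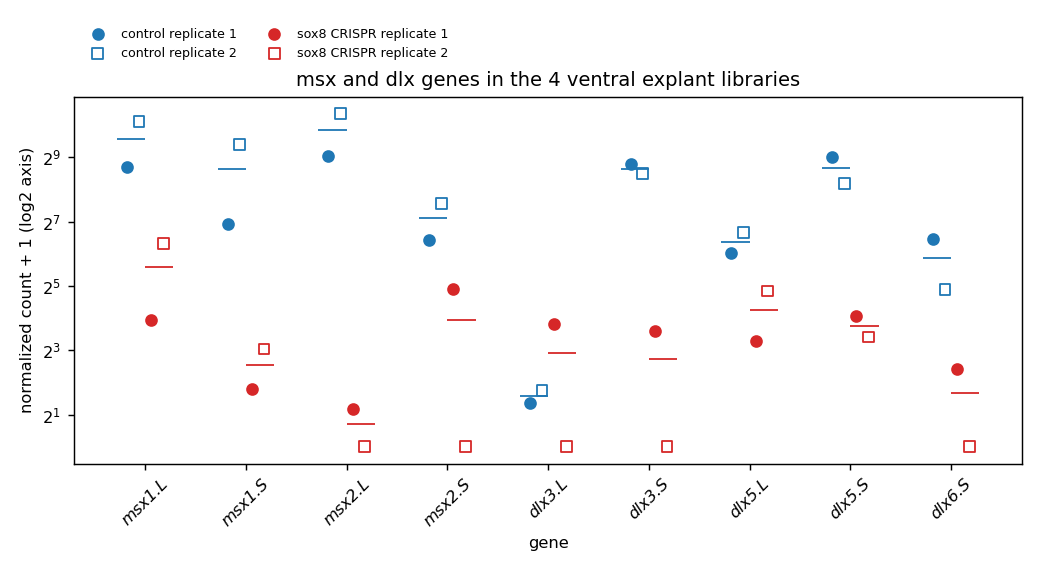
Normalized counts plus 1, on a log2 axis, of the 9 msx and dlx genes in the control (blue) and sox8 CRISPR (red) libraries, with filled circles for replicate 1, open squares for replicate 2 and short lines for the group means. All genes but dlx3.L have both red points below both blue points, and 5 genes sit at 0 in sox8 CRISPR replicate 2.

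Summed over the family, the 4 msx genes reached 1156 and 3284 normalized counts in replicates 1 and 2 of the control but 46.8 and 87.0 in those of sox8 CRISPR. The sox8 CRISPR libraries thus held 2.11% and 3.92% of the control mean. The controls themselves differed by 2.84-fold, and the nearest libraries of the groups, control replicate 1 and sox8 CRISPR replicate 2, by 13.3-fold. All 4 msx genes were higher in control replicate 2 than in control replicate 1. In bulk explants, fewer cells that express a gene and less RNA per cell cannot be told apart.

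Among them msx2.L had the only limma call. It lies on chromosome 3L of the v10.1 assembly, from 50094610 to 50104408. Its values were 531 and 1309 normalized counts for the controls against 1.25 and 0 for the sox8 CRISPR libraries. In reads these were 340 and 1647 against 2 and 0, so that the gene was well covered in both controls, whereas neither sox8 CRISPR library exceeded 3 reads, the floor used here. Scaled by the size factors, the pooled reads were 1271-fold lower, with an exact 95% interval of 351 to 10501 that covers counting error only. The limma log2 fold change was -9.12 (SE 1.50, adjusted p = 8.23e-03), and edgeR (adjusted p = 6.96e-04) and DESeq2 called the gene lower as well. With each library left out in turn the fold change stayed between -9.77 and -8.47, but the call was lost each time, with adjusted p from 0.239 to 0.997, in limma fits that called 0 genes of the whole table (510 to 3972 with an unadjusted p under 0.05).

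Its homeolog msx2.S, on chromosome 3S from 104437618 to 104447566, was less separated. The controls held 85.9 and 188 normalized counts, against 28.7, or 21.0% of their mean, in replicate 1 and 0 in replicate 2 of sox8 CRISPR. The groups did not overlap, with 55 and 237 reads against 46 and 0. Its log2 fold change of -4.56 (SE 1.81) was not called by limma (adjusted p = 0.638), edgeR (0.820) or DESeq2 (0.395), and moved between -7.00 and -2.11 when single libraries were left out.

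The msx1 homeologs kept a signal in every library. On chromosome 1L, from 27091201 to 27094017, msx1.L was measured at 419 and 1116 normalized counts in control explants against 14.4 and 79.8 in sox8 CRISPR explants, or 1.87% and 10.4% of the control mean. The groups did not overlap, and the sox8 CRISPR libraries differed from each other beyond their 95% counting intervals of 9.11 to 21.6 and 61.7 to 101. Its log2 fold change was -4.28 (SE 1.03), which limma did not call (adjusted p = 0.107), nor did edgeR (0.0978), whereas DESeq2 did (3.31e-03).

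On chromosome 1S, from 16827020 to 16829729, msx1.S was at 120 and 671 normalized counts in control explants, a 5.58-fold gap and the widest between the controls of the 4 msx genes. In the sox8 CRISPR libraries it had 2.50 and 7.25, from 4 and 6 reads, or 0.632% and 1.83% of the control mean. Every sox8 CRISPR value was far under the lower control. The log2 fold change was -5.73 (SE 1.50). It was not called by limma (adjusted p = 0.160), and was called by edgeR (0.0265) and DESeq2 (7.02e-06).

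The 5 dlx genes summed to 1112 and 785 in the controls against 53.1 and 37.5 in the sox8 CRISPR libraries, or 5.60% and 3.95% of the control mean. The controls lay 1.42-fold apart, and the nearest libraries of the groups 14.8-fold. The order of the controls in normalized counts was not that of the msx genes: dlx3.S, dlx5.S and dlx6.S were higher in control replicate 1, and dlx3.L and dlx5.L in control replicate 2. Of the summed counts of all 9 genes, the msx genes made up 51.0% and 80.7% in replicates 1 and 2 of the control, and 46.9% and 69.9% in the sox8 CRISPR libraries. Counts depend on transcript length, and no lengths were at hand, so these shares weigh longer transcripts more and levels of different genes are not ranked here.

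The dlx3 gene of the short subgenome carried nearly all dlx3 reads of the controls. At 4539235 to 4547354 on chromosome 9_10S, dlx3.S was at 439 and 360 normalized counts in control explants, against 11.2 in replicate 1 and 0 in replicate 2 of sox8 CRISPR. The controls lay close together and the sox8 CRISPR libraries at 2.81% of their mean or at 0. Its log2 fold change was -6.83 (SE 1.57), with an adjusted p of 0.0824 in limma and 0.0570 in edgeR, neither a call, and a call in DESeq2 (3.71e-05). On chromosome 9_10L, from 4802984 to 4811225, dlx3.L showed only 1.56 and 2.38 normalized counts in control explants, from 1 and 3 reads. Replicate 1 of sox8 CRISPR held 13.1, from 21 reads, and replicate 2 held 0. The groups overlapped, the log2 fold change was 0.35 (SE 2.35, limma adjusted p = 0.982), and it turned to -1.56 once sox8 CRISPR replicate 1 was left out.

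For dlx5, which is known from ectoderm, branchial arches and bone, the short-subgenome gene also held most reads of the controls. Located on chromosome 6S from 26933539 to 26939186, dlx5.S was at 520 and 293 normalized counts in control explants against 15.6 and 9.67 in sox8 CRISPR explants, or 3.84% and 2.38% of the control mean. Reads were present in all 4 libraries and the groups did not overlap. The log2 fold change was -4.88 (SE 1.18), not called by limma (adjusted p = 0.108) or edgeR (0.0538) and called by DESeq2 (2.86e-05). At 33882698 to 33887832 on chromosome 6L, dlx5.L had 64.0 and 101 in the controls and 8.74 and 27.8 in the sox8 CRISPR libraries, or 10.6% and 33.7% of the control mean. Its groups did not overlap, but its log2 fold change of -2.28 (SE 1.48) was called by no test, with an adjusted p of 0.818 in limma and 0.642 in DESeq2.

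The neighbour of dlx5.S, dlx6.S, lies on chromosome 6S from 26913569 to 26920226, with 13312 bases between the annotated genes. The controls held 87.5 and 28.6 normalized counts of it, against 4.37 and 0 in the sox8 CRISPR libraries. These are 56, 36, 7 and 0 reads, the lowest coverage among the 8 genes whose groups did not overlap. The log2 fold change of -4.46 (SE 2.00) was not called (limma adjusted p = 0.706, DESeq2 0.260). Both genes of this linked pair were lower in both sox8 CRISPR libraries and higher in control replicate 1 than in control replicate 2. The same could not be looked at for dlx6.L and for the dlx4 genes next to dlx3, which are annotated but absent from the expression table.

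Outside these 9 genes, the table held dlx2.L and dlx2.S of the same families. The values of dlx2.S were 81.2 and 264 in the controls against 10.6 and 0, with a log2 fold change of -5.44 (SE 1.80) that limma did not call (adjusted p = 0.418) and DESeq2 did (0.0280). Those of dlx2.L, at 9.37 and 21.5 against 15.6 and 0, overlapped between the groups.

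**Figure D2:**
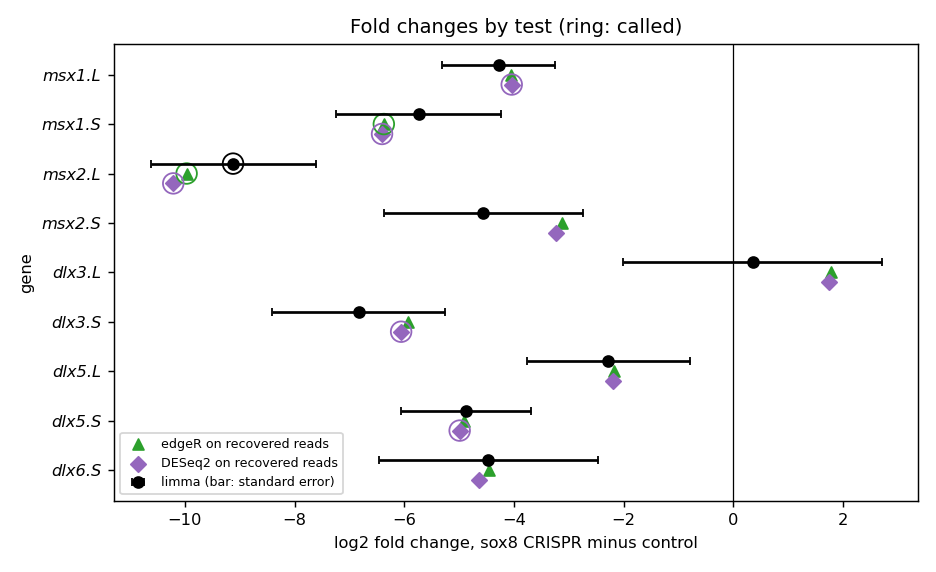
Log2 fold change (sox8 CRISPR minus control) of the 9 genes by limma with its standard error (black), edgeR (green) and DESeq2 (purple), with rings around called values. The signs were the same in all 3 tests, with dlx3.L alone at positive values, while the calls differed: 1 gene for limma, 2 for edgeR and 5 for DESeq2.

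Zeros stood mainly in 1 library. In sox8 CRISPR replicate 2, 5 of the 9 genes were at 0 (msx2.L, msx2.S, dlx3.L, dlx3.S and dlx6.S), and in sox8 CRISPR replicate 1 none was. Of all genes, 17.9% were at 0 in sox8 CRISPR replicate 2. Of the 11384 genes with at least 50 normalized counts in both controls 2.74% were at 0 there, beside 3 of the 7 msx and dlx genes that met this minimum. The part of this library's many zeros in these values was not tested. With that library left out, the 8 genes other than dlx3.L kept a negative log2 fold change. They could not do otherwise, since sox8 CRISPR replicate 1 was itself below both controls for each of them. In sox8 CRISPR replicate 1 alone, the msx genes summed to 46.8 and the dlx genes to 53.1 normalized counts, against at least 1156 and 785 in the controls.

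Reads from closely related homeologs can be divided between them by the counting, so the homeologs were also summed, over the 5640 pairs of the table. The msx1, msx2, dlx3 and dlx5 sums all lay below both controls in both sox8 CRISPR libraries. For msx1, msx2 and dlx5 this was fixed beforehand, since both homeologs already lay so. The dlx3 sum rested on dlx3.S. The share of all pairs with sums below both controls was not counted. Limma called 1 of the 4 lower, where 0.337% of all pairs were called lower. That was msx2, with 617 and 1498 normalized counts for the controls against 30.0 and 0 in the sox8 CRISPR libraries (log2 fold change -7.43, SE 1.46, adjusted p = 0.0332). This call was not made by edgeR (0.0682), which called none of the 4 sums. The msx1 sum had 539 and 1787 against 16.9 and 87.0 (-4.63, SE 0.98, limma adjusted p = 0.0516). The dlx5 sum had 584 and 394 against 24.4 and 37.5 (-3.94, SE 0.94, 0.0973), and the dlx3 sum 440 and 362 against 24.4 and 0 (-6.31, SE 1.58, 0.121). DESeq2 called all 4 sums lower. Over all genes it called 0.859% lower, and its share over all pairs was not counted.

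In the controls each pair had a leading homeolog. The .L gene held 86.1% and 87.4% of the msx2 reads and 77.7% and 62.5% of the msx1 reads, and the .S gene led for dlx5, where .L held 11.0% and 25.6%, and for dlx3, where .L held 0.355% and 0.658%. For msx1 and dlx5 these shares differed between the controls beyond their exact 95% binomial intervals, which cover counting error only. Both msx pairs were thus led from the long subgenome and both dlx pairs from the short one.

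In the sox8 CRISPR libraries the leading homeolog of 3 pairs held a smaller share in value than in the controls wherever reads remained. The .L share of msx2 was 4.17% in sox8 CRISPR replicate 1 (2 of 48 reads, exact 95% interval 0.509% to 14.3%), and that of dlx3 was 53.8% there (21 of 39 reads, 37.2% to 69.9%), while sox8 CRISPR replicate 2 had no reads of either pair. For dlx5 the .L share was 35.9% (21.2% to 52.8%) and 74.2% (55.4% to 88.1%). The exception was msx1, whose .L share was 85.2% (66.3% to 95.8%) and 91.7% (82.7% to 96.9%), above both controls in value. A test of the .L to .S ratio within libraries by limma called 0 of the 5640 pairs (0% called, 371 with an unadjusted p under 0.05), so no difference between homeologs passed. The unadjusted p was 4.71e-04 for dlx3, 0.0365 for msx2, 0.0842 for dlx5 and 0.159 for msx1, with adjusted p from 0.730 to 0.787, and a library with no reads of a pair enters this ratio as even.

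**Figure D3:**
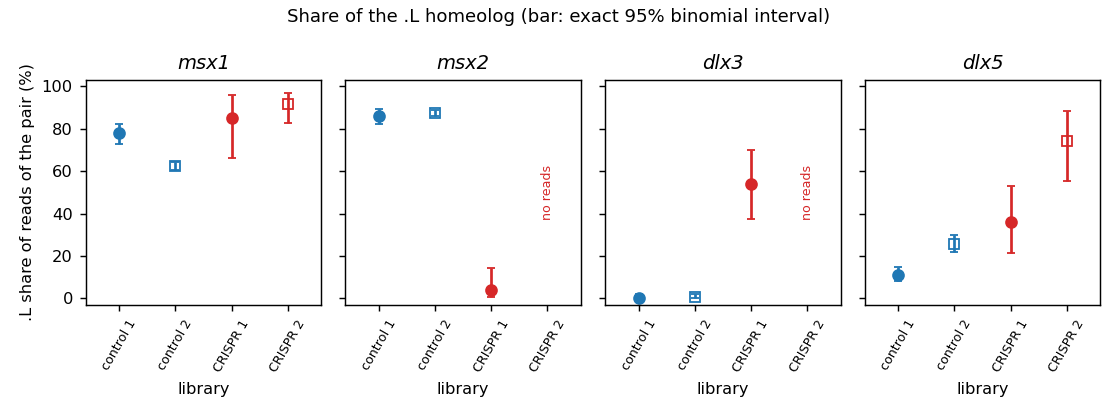
Share of the .L homeolog among the reads of each pair in percent, by library, with exact 95% binomial intervals for counting error. In the controls .L leads for msx1 and msx2 and trails for dlx3 and dlx5, and in sox8 CRISPR replicate 1 the .L share of msx2 is 4.17% and that of dlx3 53.8%.

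The rest of the BMP pathway was read from lists written by hand. Of 21 other BMP-responsive genes (the ventx, id and gata families and tfap2a), 18 lay below both controls in both sox8 CRISPR libraries and limma called 9 lower and 0 higher, with a median log2 fold change of -4.56. Called genes included ventx1.S, a ventral homeobox repressor, with 3031 and 3341 against 26.2 and 82.2 (log2 fold change -6.06, adjusted p = 1.04e-03), and gata2.S, a zinc finger factor of the ventral side and blood lineage, with 459 and 1794 against 0 and 0 (adjusted p = 6.53e-03). Other genes of the list were not called: id3.L had 3970 and 3910 against 2803 and 3048 (-0.43, limma adjusted p = 0.918), and tfap2a.L, a factor of the non-neural ectoderm and border where dlx genes are also known, had 120 and 85.9 against 129 and 100.3 (0.16, adjusted p = 0.981). Its homeolog tfap2a.S had 79.6 and 15.9 against 195 and 160 (2.26, limma adjusted p = 0.768). It was the 1 gene of the list above both controls in both sox8 CRISPR libraries. Limma called a larger share of this list than of the 9 msx and dlx genes at the same median, and the difference between the lists was not tested. Of these listed genes 4 of 21 were at 0 in sox8 CRISPR replicate 2, beside 5 of the 9.

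The 13 listed feedback genes of the pathway are mostly induced by BMP and mostly limit it. Limma called 4 of them lower and 0 higher, with a median of -2.65. These 4 were both homeologs of bambi, a decoy receptor, and both of szl, an inhibitor of the proteases that cut chordin. The list also held both homeologs of bmp1 and tll1, which encode such proteases. The median was the value of bmp1.S, whose groups overlapped (34.4 and 142 against 127 and 0) and whose edgeR log2 fold change was -0.39. For bambi.S the values were 8658 and 11857 against 156 and 317 (log2 fold change -5.51, adjusted p = 1.04e-03). For the inhibitory smad7.L, at 654 and 795 against 49.3 and 23.0, limma gave an adjusted p of 0.0532. Its homeolog smad7.S had 145 and 234 against 14.4 and 15.7. The inhibitory smad6 genes did not share this fall: smad6.S had 24.99 and 43.7 against 106.8 and 48.3, and smad6.L 49.97 and 162 against 133 and 212. Neither was called by limma. Of the 13 feedback genes, 8 lay below and 1 above both controls in both sox8 CRISPR libraries.

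Of the 8 genes for BMP ligands in the table, limma called 1 lower, bmp4.S, with 3426 and 3333 in the controls against 231 and 321 (log2 fold change -3.63, adjusted p = 0.0254). Its homeolog bmp4.L had 2196 and 3010 against 1212 and 1169 (-1.11, adjusted p = 0.817), and the median of the ligands was -0.51. EdgeR called 0 of the 8 lower. DESeq2 called 2, bmp4.S and bmp7.1.L, the latter with 403 and 1223 against 127 and 55.6 (adjusted p = 0.0228). Of the 8 ligands, 4 lay below and 1 above both controls in both sox8 CRISPR libraries, where 19.1% of all genes lay below. The 18 genes for receptors and Smads held 0 calls in limma, edgeR and DESeq2, with 2 at an unadjusted p under 0.05 in limma, and had a median of -0.19, close to that of all genes. Among 13 antagonists 5 were called higher, where limma called 0.144% of all genes higher. Another 3 lay below both controls in both sox8 CRISPR libraries, of which DESeq2 but not limma called grem1.L (43.7 and 50.9 against 0 and 0) and twsg1.S (4471 and 3281 against 442 and 803) lower. The 5 were both chrd.1 homeologs with chrd.2.L, which encode chordin, the noggin gene nog.L and the follistatin gene fst.L. The organizer gene chrd.2.L, for example, had 0 reads in both controls and 11979 and 1483 normalized counts in the sox8 CRISPR libraries (adjusted p = 2.26e-04). The part of the organizer transcripts in the lower msx and dlx values was not tested.

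**Figure D4:**
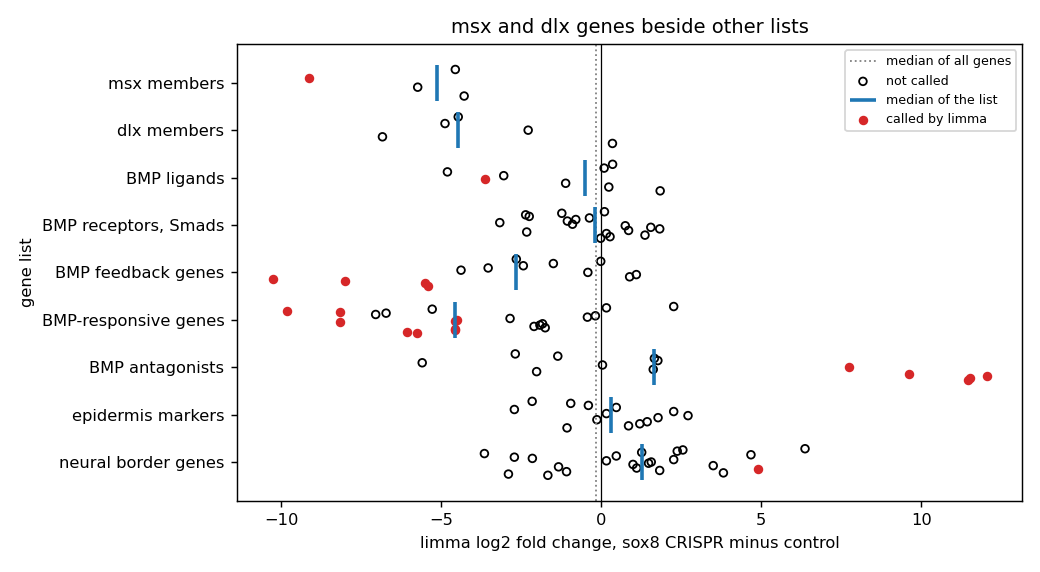
Limma log2 fold changes (sox8 CRISPR minus control) of the msx and dlx genes beside 7 hand-written lists, 1 point a gene, red where called, with a blue bar at each list's median and a dotted line at the median of all genes. The msx and dlx genes lie near the other BMP-responsive genes, whose median is also -4.56, while receptors and Smads centre at -0.19 and epidermis markers at 0.32.

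Since Msx and Dlx genes are known from epidermis and the neural border as well as from ventral mesoderm, markers of those tissues were read in the same libraries. The 14 epidermis markers summed to 879 and 544 in the controls against 1469 and 757 in the sox8 CRISPR libraries, with 0, 3, 0 and 4 of them at 0 in that order. Limma, edgeR and DESeq2 called 0 of the 14, with 0 at an unadjusted p under 0.05 in limma, and their median log2 fold change was 0.32. Single epidermis genes were uneven between the controls: grhl3.L, an epidermal transcription factor, had 191 and 0 in the controls against 46.9 and 45.9. The keratin gene krt70.S had 166 and 102 against 661 and 137. In normalized counts, control replicate 1 was above control replicate 2 for the summed epidermis markers and for dlx3.S, dlx5.S and dlx6.S. The order was the other way for dlx3.L and dlx5.L. The dlx sum had 712 and 988 reads in control replicates 1 and 2, out of 18189895 and 20783274 reads on genes. As a share of reads it was thus higher in control replicate 2, so its order depended on the size factors. The same held for dlx3.S, with 281 and 453 reads. For dlx5.S the reads were 333 and 369, and for dlx6.S 56 and 36. Reads of the summed epidermis markers were not counted, so whether their order depended on the size factors was not tested. The part of ectoderm in the dlx values was not tested.

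Of 23 neural border genes, among them pax3, zic and snai2 genes, 1 was called higher (zic2.S, 45.3 and 16.7 against 1091 and 668, adjusted p = 0.0273) and 0 lower, with a median of 1.26. In this list 3 genes lay below and 11 above both controls in both sox8 CRISPR libraries. Of all genes 19.1% lay below, and the share above was not counted. The 4 smallest p-values belonged to zic2.S, foxd3.S, hes4.L and eya1.L, all with positive fold changes. Among the 3 genes below was pax3.S, a border gene known to act downstream of msx1 in the frog. It had 39.0 and 81.9 against 6.25 and 7.25 (-2.90, limma adjusted p = 0.798). Its homeolog pax3.L overlapped between the groups, at 24.99 and 17.5 against 20.6 and 1.21. The border genes foxd3.L, foxd3.S and snai2.L were among those above, and snai2.S overlapped. Whether genes downstream of msx1 changed as a set was not tested. Neural plate markers had a median of 1.80, with 11 of 16 above both controls in both sox8 CRISPR libraries. Limma called 4 higher, among them foxd4l1.1.L with 201 and 397 against 5897 and 3418 (adjusted p = 0.0171). Summed, the 16 markers overlapped between the groups, at 39088 and 14410 in the controls against 36551 and 76489. Their part in the msx and dlx values was not tested. The markers of ventral mesoderm lay on the side of the msx and dlx genes, with 19 of 22 lower in both sox8 CRISPR libraries, 6 called lower, 0 called higher and a median of -2.09. Of these 22, 8 are ventx genes that are also on the list of BMP-responsive genes. Other lists share genes too. The zic genes, zic2.S among them, are on both the neural border and the neural plate list. The tfap2a genes are on the BMP-responsive, neural border and epidermis lists. The chrd.1, chrd.2, nog and cer1 genes are on both the antagonist and the organizer list. Endoderm markers had a median of -1.29, with 9 of 13 fold changes negative, as were those of 11753 of all 21531 genes. In sox8 CRISPR replicate 2, 7 of the 13 were at 0, although the 13 summed to 1182 and 912 against 3062 and 1413. The sum was carried in part by a2m.S, with 20.3 and 21.5 against 1330 and 266. Limma called 0 of the 13 (5 with an unadjusted p under 0.05). EdgeR called 0 lower and 1 higher, and DESeq2 1 lower and 1 higher.

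Genes next to the msx and dlx genes on the chromosomes were compared as well, a choice made after the values had been seen. The nearest tested gene on each side gave 16 genes, at 10303 to 896760 bases from the msx or dlx gene. Of these, 2 lay below and 2 above both controls in both sox8 CRISPR libraries, and limma, edgeR and DESeq2 called 0 of them, with 1 at an unadjusted p under 0.05 in limma. Their median log2 fold change was -0.41. On the sides of dlx3.L, itga3.L, an integrin gene, had 128 and 200 in the controls against 718 and 453, and kat7.L, a histone acetyltransferase gene, had 103.1 and 38.9 against 4.997 and 6.04. Its homeolog kat7.S, beside dlx3.S, had 478 and 326 against 215 and 141. Next to msx2.L, sfxn1.L had 906 and 1056 against 678 and 1540.

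For the 7 msx and dlx genes with a mean of at least 50 normalized counts, the 3 genes of most similar profile over the 4 libraries were taken by Euclidean distance on centred log2 values, among 13718 genes. With 4 libraries the distance describes these libraries and has no test. Nearest to msx1.L were wnt8a.S, a ventral Wnt ligand, at 0.53, id2.L at 0.84 and LOC108700108 at 0.89. The genes nearest to msx1.S were anpep.S (1.00), tbx3.S (1.23) and bambi.S (1.45), and those nearest to msx2.L were LOC108698406 (0.48), hoxa9.L (0.56) and foxf1.S (1.11), a forkhead gene of ventral and lateral mesoderm. To dlx3.S the nearest were LOC108714597 (0.48), sox9.S (0.79), a SoxE gene like sox8, and LOC108700106 (0.86). The profile of dlx5.L lay nearest to setd1b.L (0.11), ventx2.S (0.36) and magi1.S (0.36). That of dlx5.S lay nearest to thop1.L (0.33), LOC108696924 (0.55) and LOC121395443 (0.73), and that of msx2.S to chrna5.L (0.18), tshz1.L (0.22) and hunk.S (0.28). No msx or dlx gene was among the 3 nearest of another.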

How the data were processed

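RNA-seq of 2 control and 2 sox8 CRISPR libraries was analysed, grouped by the sample titles. According to the paper's methods and the processing notes, the authors trimmed the reads (cutadapt 4.4), removed ribosomal RNA reads, aligned them to the v10.1 assembly with HISAT2 2.2.1, counted them with featureCounts 2.0.6, removed genes with a mean under 5 and divided by DESeq2 size factors. The handling of strand and of reads matching several genes is not given in the sources used here. The deposited values are therefore a signal, normalized counts. Division by the step that 1 read is worth gave whole reads for 100% of values (tolerance 0.001).

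Limma 3.58.1 (R 4.3.3, intensity trend) tested log2(normalized count + 1), on which the added count sets the fold change of genes at or near 0, with Benjamini-Hochberg adjustment over all genes. Pair sums and .L to .S ratios were tested likewise over all pairs, the ratios without the trend. Alternatives on recovered reads were DESeq2 1.42.0 with its Wald test and edgeR 4.0.16 with its quasi-likelihood test, and others were pseudocounts of 0.5 and 5, a filter on means under 20, TMM scaling, quantile normalization, no trend, a replicate block and leaving out each library. The tests were tried on simulated data. Positions are gene spans from RefSeq for v10.1, in which all 9 msx and dlx genes were found. The genes named are all msx and dlx genes, the targets, the genes of lowest unadjusted limma p in each list (further listed genes and the neighbours were chosen after their values were seen) and the 3 nearest profiles. The msx and dlx genes and the lists were chosen with earlier results of these data known. Smart-seq2 reads carry no molecular identifiers, so intervals cover counting error only.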

Additional observations from a re-analysis of the deposited data

How the results depend on the processing

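Without dlx3.L, the other 8 msx and dlx genes had negative log2 fold changes in 112 of 112 values under the 14 alternatives, but the calls moved. Most of these signs were fixed beforehand. The filter, the trend and the blocks do not alter a fold change. Leaving out a library or changing the pseudocount cannot turn the sign of genes below both controls in both sox8 CRISPR libraries. Limma called 72 genes in all, against 109 by edgeR, 423 by DESeq2, 153 with a pseudocount of 5, 199 after quantile normalization and 0 without the intensity trend (1450 with an unadjusted p under 0.05), and 0 to 0 with single libraries left out (510 to 3972). Of the 9 msx and dlx genes, 1 was called, against 2 by edgeR, 5 by DESeq2, 3 with a pseudocount of 5, 5 after quantile normalization, 0 without the trend (7 with an unadjusted p under 0.05) and 0 to 0 with single libraries left out (1 to 6). Of their 4 pair sums 1 was called, against 0 by edgeR, 4 by DESeq2, 2 with the filter, 0 with a pseudocount of 0.5, 2 with a pseudocount of 5, 3 after quantile normalization, 0 without the trend and 0 to 4 with single libraries left out. Over all 5640 pairs the main fit called 37 sums, and such totals were not counted for the alternatives. Without the trend msx2.L had an adjusted p of 0.424.

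Deviations of same-numbered libraries from their group means had a correlation of -0.22 across genes. With only 2 libraries in each group, this cannot show whether the replicate numbers pair the libraries. The replicate block gave 86 calls, 1 among the 9 genes and 2 pair sums. With the numbers crossed, a block added after the data were seen, there were 776, 5 and 4.

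The fold change of dlx3.L turned to -1.56 without sox8 CRISPR replicate 1 (range -1.56 to 2.26 over libraries left out), that of dlx2.L to 0.12 without sox8 CRISPR replicate 2 (-3.93 to 0.12) and that of sox8.S from -1.16 to 1.21 by DESeq2, 1.29 by edgeR and 2.38 without sox8 CRISPR replicate 2 (-4.70 to 2.38). The median of all genes, -0.16, was 0.07 by edgeR, 0.01 by DESeq2 and -0.02 after quantile normalization. With 2 libraries a group, a permutation test cannot go below p = 0.333.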
